A study of Mus musculus with 5 samples.

Results

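miR-34c is a microRNA of the miR-34 family, and it was 1 of 217 microRNA (miRNA) assays read in regenerating mouse muscle. It was chosen by the measured Ct values themselves, for a level that was above baseline from day 1 and still above it on day 21. The values of miR-34c are therefore described here without a test. The muscle was the tibialis anterior of C57BL/6J males aged 4 to 6 months. The baseline muscles had no injection. The others were taken 1, 3, 4, 7 or 21 days after cardiotoxin, which destroys muscle fibres and spares their stem cells, was given in both legs (2.5 µM, 100 µl in the anterior compartment). The labels give 4 mice per time point and name no transgene or mutation. Days 2 and 5, which the labels also name, were not analysed here. Each arm held 4 values per assay, and 1 set of 4 baseline values served all 5 time points. No mouse is named in the files. The 4 values of an arm are treated here as 4 mice, and if they were repeats of fewer mice the p-values measure technical spread.

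The values are threshold cycles (Ct) of TaqMan RT-PCR, the cycle at which the product becomes visible, so a lower Ct means more RNA. A difference of 1 cycle is 1 unit on a log2 scale only if the product doubles in each cycle. The efficiency of the assays is not given in the sources used here. Because Ct also depends on the assay, levels of different miRNAs are not set against each other, and comparisons between miRNAs use only how their Ct difference moved.

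A miRNA acts by pairing its seed, bases 2 to 8, with messenger RNAs, which are then translated less or degraded. miR-34a and the miR-34b and miR-34c pair are textbook targets of the transcription factor p53, which switches on both genes after DNA damage and other stress. Through the shared seed they repress cell cycle and survival genes such as Cdk4, Ccne2, Met and Bcl2. miR-34b and miR-34c come from 1 primary transcript, miR-34a from a separate gene, and miR-449a, which has the same seed, is best known from multiciliated epithelium, where it acts together with miR-34b and miR-34c. Neither p53 nor any messenger RNA was measured here, so the name p53 target stands as background.

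How well the assays of the family tell its members apart was not tested. The sequences below show which members share a seed, with the seed in capitals, 5′ to 3′, from RefSeq on GRCm38.p6. The first 3 carry the family seed.
miR-34a-5p: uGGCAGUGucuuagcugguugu
miR-34b-5p: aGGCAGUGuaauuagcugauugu
miR-449a-5p: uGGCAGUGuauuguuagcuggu
Those lie at chr4:150068473-150068494 on the plus strand, chr9:51103610-51103632 on the minus strand and chr13:113037549-113037570 on the plus strand. Besides miR-34c, whose hairpin carries it, 4 of 1679 mature mouse miRNAs in the table have this seed, these 3 and miR-449c-5p.

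The seed of miR-34c is shown in its hairpin, the precursor that is cut into the mature miRNA, with the family seed in capitals. The hairpin lies at chr9:51103034-51103110 on the minus strand and carries the seed from base 14.
Mir34c hairpin: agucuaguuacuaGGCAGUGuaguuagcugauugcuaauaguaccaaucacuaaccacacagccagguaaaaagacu
The Mir34b hairpin lies 451 bases away, at chr9:51103562-51103645 on the same strand, and both hairpins sit within the spans of Btg4 and Hoatz.
Mir34b hairpin: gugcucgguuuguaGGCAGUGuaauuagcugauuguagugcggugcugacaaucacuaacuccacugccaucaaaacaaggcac
The panel read miR-34b on its other arm, miR-34b-3p, which has a different seed. It is shown with the same arm of miR-34c, again with bases 2 to 8 in capitals.
miR-34b-3p: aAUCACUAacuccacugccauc
miR-34c-3p: aAUCACUAaccacacagccagg
These 2 sequences are identical at 17 of 22 positions and share a seed that no other miRNA in the table has. The assay called miR-34c carries no arm in its name. miR-34b-3p is thus a product of the transcript it shares with miR-34c, but does not carry the family seed.

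miR-34c was read several cycles earlier at every time after injury than in uninjured muscle. Its Ct was 30.69, 30.59, 30.32 and 28.54 at baseline. On day 1 it was 26.45, 26.32, 26.5 and 26.65, below all 4 baseline values. On day 3 it was 24.29, 24.47, 23.73 and 24.14. These 4 values lay below all those of day 1.

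Day 4 gave 24.07, 23.96, 24.33 and 23.61, which overlapped day 3. Day 7 gave 23.43, 23.94, 23.96 and 23.44, the lowest mean Ct of the series for this miRNA (23.7 ± 0.298, SD, n = 4). On day 21 the Ct was 25.44, 25.34, 25.25 and 25.23, above days 3, 4 and 7 and still below day 1 and baseline. All 24 wells were under Ct 35, the limit of detection used here, so no value of miR-34c is a bound. The mean Ct was 26.5 ± 0.136 on day 1 and 25.3 ± 0.0961 on day 21, against 30.0 ± 1.01 at baseline (SD, n = 4 each).

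The wide spread at baseline came from a single value. Baseline value 4, at 28.54, lay apart from the other 3, of which the nearest was 30.32. The same value number of miR-34b-3p was also its lowest at baseline, at 24.3 against 25.08 to 25.26 in the other 3. So it was for miR-34a, at 21.57, and for each of the 5 control RNAs read beside the miRNAs. A low Ct at value 4 was thus not particular to miR-34c and miR-34b-3p. For miR-449a value 4 was the highest, at 29.42 against 28.52 to 29.06. Leaving this value out made every difference of miR-34c from baseline larger, and the range without it is given with the changes.

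**Figure D1:**
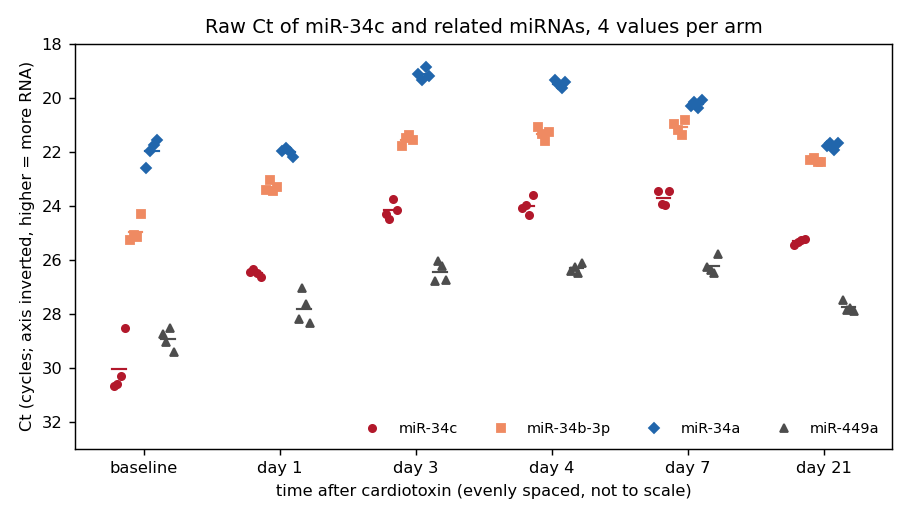
Raw Ct of miR-34c and of the 3 related assays (vertical axis, cycles, inverted so that more RNA is higher) at baseline and on each day after cardiotoxin, with 1 point per value and a bar at the mean of 4. All 20 miR-34c values after injury lie above the 4 baseline values in the plot, and baseline value 4 (Ct 28.54) stands apart from the other 3.

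Raw Ct does not allow for the amount of RNA in a reaction, so changes are given on 2 scales. The first is relative to the median miRNA: 205 miRNAs had a Ct under 35 in all wells, and their median change was taken off each value. The second is relative to U6, a small nuclear RNA that the files mark as the endogenous control. Both scales take the same position in the files to be the same RNA in every assay, which the files do not state. The words rose and fell are kept for miRNAs where limma's adjusted p was under 0.05 on both scales in the same direction. U6 itself was not level between arms, with a mean Ct of 12.5 ± 0.792 on day 1 and 14.6 ± 0.55 on day 21, against 14.8 ± 0.264 at baseline (SD, n = 4 each). Relative to U6 the median of all tested miRNAs was shifted by -1.95, -1.17, -0.61, -0.03 and -0.12 (log2) on days 1, 3, 4, 7 and 21. The scales thus differ most on day 1.

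Relative to the median miRNA, miR-34c was 3.17 ± 0.255 log2 units above baseline on day 1 (SE of the fit, n = 4 per arm), or 9.00-fold. The difference was 5.17 on day 3, 5.10 on day 4 and 5.15 on day 7, which is 36.0, 34.3 and 35.5-fold. On day 21 it was 4.57 ± 0.255, or 23.8-fold. The fit gives each miRNA 1 spread over all 6 arms. On this scale the SD of miR-34c was 0.819 at baseline and 0.147 to 0.227 on the days after injury. The SE of the fit does not show this unevenness. Without baseline value 4 the differences were 3.57, 5.60, 5.51, 5.55 and 5.01 on days 1, 3, 4, 7 and 21.

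Relative to U6 the same muscles gave a smaller early difference and a similar late one. It was 1.26 ± 0.452 on day 1 (2.40-fold), 4.05 on day 3, 4.42 on day 4, 5.06 on day 7 and 4.45 ± 0.452 on day 21 (21.9-fold). On day 1 the values relative to U6 ran from 0.18 to 2.05, and overlapped the baseline values, which ran from -0.84 to 1.26. The difference of miR-34c from baseline was above 0 on each day under all 7 scalings computed, which add raw Ct, the small nucleolar RNAs snoRNA135 and snoRNA202, the small RNA U87 and the Y RNA Y1. The size on day 1 depended on the scaling, from 1.26 relative to U6 to 5.91 relative to Y1. On day 21 it lay between 3.43 relative to snoRNA135 and 5.64 relative to Y1.

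**Figure D2:**
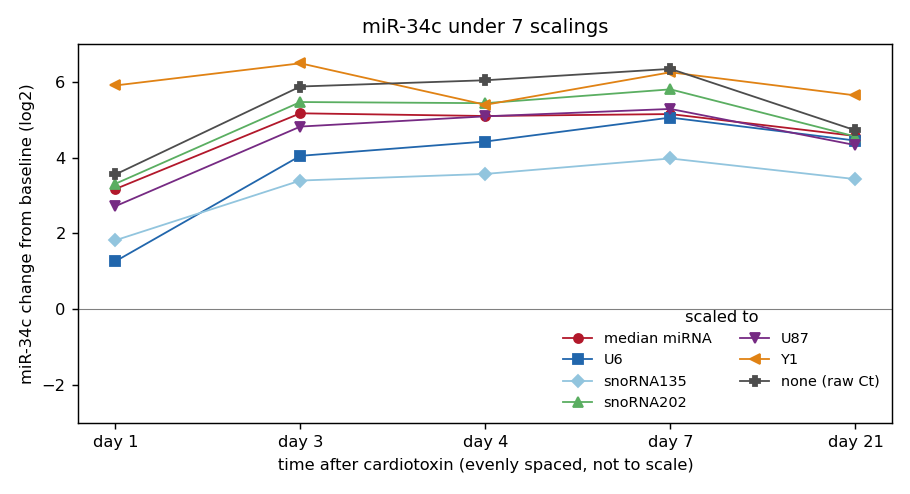
Difference of miR-34c from baseline (vertical axis, log2) on days 1, 3, 4, 7 and 21 under each of 7 scalings, 1 line per scaling. Every point is above 0, and the lines are furthest apart on day 1, from 1.26 relative to U6 to 5.91 relative to Y1.

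The order of the arms followed from these values. Relative to the median miRNA, miR-34c was lowest at baseline, then day 1, day 21, day 4, day 7 and day 3. The values of baseline, day 1, day 21 and day 4 did not overlap each other. Day 4, day 7 and day 3 overlapped. Relative to U6 the order was baseline, day 1, day 3, day 4, day 21 and day 7, and only day 1 and day 3 were apart as neighbours.

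The steps between days are given in the same way, with no test, since the Ct of all 6 arms entered the choice of miR-34c. Day 3 was 2.00 ± 0.256 log2 units above day 1 (SE of the fit, n = 4 each), a 4.00-fold difference, and 2.79 ± 0.452 above it relative to U6. Relative to Y1, which was itself lower on day 1 than at baseline, the step was 0.58.

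After day 3 the differences were small on the median-miRNA scale. Day 4 minus day 3 was -0.07 ± 0.256 and day 7 minus day 4 was 0.05 ± 0.256. Relative to U6 these steps were 0.38 ± 0.453 and 0.63 ± 0.453, and relative to Y1 they were -1.09 and 0.86, in opposite directions. Day 21 was 0.58 log2 units below day 7 relative to the median miRNA, and 0.61 below it relative to U6.

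miR-34c stood high among all miRNAs by the size of its difference from baseline, as its choice implies. It ranked 18 of 211 on day 1, 4 of 212 on day 3, 9 of 213 on days 4 and 7, and 6 of 213 on day 21. These ranks are the same on both scales, since a scaling shifts all miRNAs of an arm alike. Of the other 209 miRNAs tested on all 5 days, 3 (1.44%) passed as higher every time, and they were miR-130b, miR-18a and miR-351. miR-18a belongs to the miR-17-92 cluster, known for driving proliferation, and miR-351 to an X-linked cluster.

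miR-34b-3p, from the other arm of the neighbouring hairpin, moved the same way and by less. Its Ct was 25.26, 25.08, 25.17 and 24.3 at baseline. It was 23.41, 23.04, 23.46 and 23.31 on day 1, and 21.77, 21.5, 21.37 and 21.56 on day 3. On day 21 it was 22.29, 22.24, 22.36 and 22.37. All values after injury were below all baseline values.

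miR-34b-3p rose on days 3, 4, 7 and 21. The difference from baseline was 2.70 on day 3 and 2.49 ± 0.157 on day 21 (log2, SE, n = 4 each), where limma's adjusted p was 7.91e-12. Relative to U6 the day 21 difference was 2.37 (adjusted p = 6.73e-05). On these days 19.3%, 25.8%, 31.5% and 22.1% of all tested miRNAs rose (days 3, 4, 7 and 21). On day 1, where 9% rose, miR-34b-3p was at 1.26 on the median-miRNA scale and at -0.65 relative to U6 (limma adjusted p = 0.189), so it did not pass on both scales. Its direction on day 1 was negative relative to snoRNA135 as well, at -0.09. From day 3 to day 21 it was above baseline under all 7 scalings.

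The assays of the pair came closer together after injury, which needs no scaling to see. The Ct of miR-34c lay 3.18 ± 0.158 cycles above that of miR-34b-3p on day 1, 2.61 ± 0.259 on day 3, 2.67 on day 4, 2.61 on day 7 and 3.0 ± 0.146 on day 21. At baseline the gap was 5.08 ± 0.583 (SD, n = 4 each). No value after injury reached the smallest baseline gap, 4.24, which was that of baseline value 4. The gap contains the difference of miR-34c from baseline by which it was chosen, so it is given with no test.

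miR-34a, made from its own gene on chromosome 4, had a shorter course. Its Ct was 22.61, 21.98, 21.75 and 21.57 at baseline, and 21.97, 21.86, 22.02 and 22.18 on day 1, within the baseline range. On day 3 it was 19.11, 19.32, 18.84 and 19.18, below all baseline values. On day 21 it was 21.77, 21.67, 21.91 and 21.67, again within the baseline range. Of the 4 assays it was the only one whose day 21 values fell inside their baseline range.

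On day 1 miR-34a was lower, by -0.41 ± 0.133 relative to the median miRNA (log2, SE, n = 4 each, limma adjusted p = 0.00715) and by -2.32 relative to U6, where 38.9% of all miRNAs fell on both scales. Its day 1 difference was positive relative to Y1, at 2.32. On day 3 it rose by 2.16 ± 0.133 (limma adjusted p = 1.80e-12), but only narrowly relative to U6 (1.03, adjusted p = 0.0478). That call was lost in 7 of 8 runs that left out 1 baseline or day 3 value, the exception being the run without day 3 value 3. On days 4, 7 and 21 it stood at 1.56, 0.57 and 0.07 and did not pass on both scales. The sign on day 21 differed between scalings, as did that on day 7, where it was -0.60 relative to snoRNA135.

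miR-449a, encoded on chromosome 13 within Cdc20b, was above baseline on each day relative to the median miRNA, by less than miR-34c. Its Ct was 28.74, 29.06, 28.52 and 29.42 at baseline, and 26.25, 26.37, 26.47 and 25.8 on day 7. On day 21 it was 27.49, 27.84, 27.79 and 27.89, between those arms. It rose on day 7 by 1.52 ± 0.255 (log2, SE, n = 4 each, limma adjusted p = 1.11e-05; 1.43 relative to U6, adjusted p = 0.00718). Its differences of 0.75, 1.79, 1.68 and 1.03 on days 1, 3, 4 and 21 did not pass on both scales. On day 1 the sign turned relative to U6 (-1.16) and snoRNA135 (-0.61), and on day 21 relative to snoRNA135 (-0.10). All 3 relatives rose from day 1 to day 3, by 2.57 for miR-34a, 1.43 for miR-34b-3p and 1.04 for miR-449a, where 31% of 213 tested miRNAs rose and 13.1% fell. Relative to Y1 miR-34a was 3.48 above baseline on day 3 and 2.32 on day 1. On that scale miR-34b-3p was at 4.01 on day 3 and 4.00 on day 1, and miR-449a was lower on day 3 (3.10) than on day 1 (3.48).

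**Figure D3:**
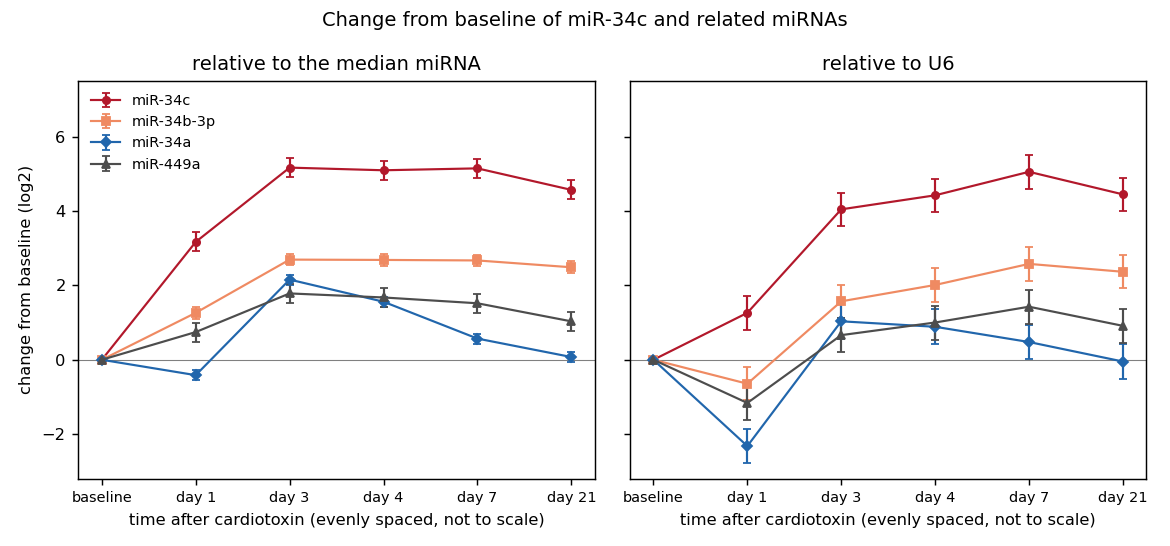
Difference from baseline (vertical axis, log2) of miR-34c, miR-34b-3p, miR-34a and miR-449a by day, with the median-miRNA scale and the U6 scale in separate panels, with bars for the SE of the fit. miR-34c is the highest of the 4 on every day in both panels, which its choice favours. On day 21 miR-34a is at 0.07 and -0.05, while miR-34b-3p is at 2.49 and 2.37.

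Whether the relatives kept their ratio to each other was tested without a normalizer, on the Ct difference within a value number, in 6 exact two-sided permutation tests chosen after the values had been seen. These tests likewise take a value number to be the same RNA in each assay. With 4 values against 4 the smallest p such a test can give is 0.0286. Over miR-34a, miR-34b-3p was 1.88 ± 0.116 log2 units higher on day 21 than on day 3 and 2.42 ± 0.185 higher on day 21 than at baseline (SE, n = 4 each, exact p = 0.0286 and adjusted p = 0.0343 for each). Over miR-449a it was 0.55 and 1.46 higher in the same comparisons, with the same exact p. miR-449a over miR-34a was 1.33 higher on day 21 than on day 3 (exact permutation p = 0.0286, adjusted 0.0343). Against baseline it was 0.96 higher, which did not pass (exact permutation p = 0.0857).

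The gap between miR-34c and miR-34a itself moved in steps. The Ct of miR-34c lay 4.47 cycles above that of miR-34a on day 1, 5.04 on day 3, 4.52 on day 4, 3.48 on day 7 and 3.56 on day 21, against 8.06 ± 0.764 at baseline (SD, n = 4). Against miR-449a its Ct was lower by 1.32 cycles on day 1 and by 2.29 to 2.53 from day 3 to day 7. It was lower by 2.44 on day 21, but higher by 1.10 at baseline. In every comparison miR-34c had gained on its relative after injury. These gaps also contain the difference from baseline by which miR-34c was chosen, so they are given with no test.

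Of 17 other miRNAs linked to p53 through their transcription or processing, 15 were on the panel and 14 were detected well enough to test. These shared baseline values with miR-34c, and several belong also to marker lists of cell types given further on. On day 1, 5 rose and 3 fell. All miRNAs together gave 9% rising and 38.9% falling. The 5 were miR-200a (8.38 log2 units above baseline), miR-141 (5.40), miR-215 (4.69), miR-200c (4.60) and miR-200b (3.62). Of these, the miR-200 family and miR-141 are best known from epithelium, where they hold down Zeb1 and Zeb2. miR-107 (-3.48), miR-145 (-1.32) and miR-34a fell.

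On later days the list went both ways. It had 6 rising and 6 falling on day 3, 4 and 7 on day 4, and 4 and 6 on day 7. The shares over all miRNAs were 41%, 41.8% and 35.7% falling on those days, beside the rising shares given above. On day 21 miR-34b-3p alone rose, and 4 fell, where 19.2% of all miRNAs fell. These were miR-145 (-1.41), known from smooth muscle, miR-200c (-1.24), miR-16 (-1.08), which slows the cell cycle, and miR-194 (-0.88). The count of 5 on day 21 became 3 without baseline value 2, and 3 without day 21 value 3 or value 4. Relative to Y1, where passing on that scale alone counted, the day 21 split was 7 higher and 0 lower. Nearly all calls went that way on this scale, with 125 higher and 7 lower among all tested miRNAs.

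The median of the list was 1.16 on day 1, 0.50 on day 3, -0.10 on day 4, -0.28 on day 7 and -0.34 on day 21 relative to the median miRNA. The median over all tested miRNAs was -0.04, -0.05, 0.06, 0.06 and 0.00 on the same days. miR-34a and miR-200a stood at 0.07 and 1.12 on day 21 and did not pass. The 4.57 of miR-34c on that day was above the value of every tested miRNA of the list, a ranking that its choice favours.

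The miRNAs with a time course nearest to that of miR-34c were found by the root mean square difference over the 5 days, among 209 miRNAs detected in all 6 arms. As a description, with 6 arm means that share their baseline, miR-501-3p came first with 0.61 log2 units. It was 2.63, 4.56, 5.72, 5.64 and 5.32 above baseline on days 1, 3, 4, 7 and 21. The next were miR-31 (1.33), miR-500 (1.76), miR-335-3p (1.79) and miR-18a (1.87). miR-31 is known in mouse satellite cells for holding back Myf5 translation. miR-500 and miR-501 lie within the span of Clcn5 on chromosome X, and miR-335 within Mest, an imprinted gene.

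By Pearson's r of the 6 arm means, which ignores size, miR-34b-3p was the nearest, with r = 0.988. It was followed by miR-494 (0.976), miR-500 (0.976), miR-501-3p (0.967) and miR-362-3p (0.964). The 2 measures had 2 of their 5 miRNAs in common, miR-500 and miR-501-3p. miR-362 also lies within Clcn5.

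In whole muscle, fewer cells of a type and less RNA per cell cannot be told apart, and the cells present changed with the injury. For each marker list, every member was set over its own baseline median, relative to the median miRNA, and these folds were averaged. A member with a large fold therefore weighs most, and the mean is not an amount of RNA. Over the 5 of 7 listed myofibre miRNAs on the panel, such as miR-1 and miR-133a, the mean fold was 0.0122 to 0.0349 on day 3. It was 0.422 to 0.793 on day 21, against 0.855 to 1.15 at baseline. miR-499, made from an intron of a myosin gene, was at or over Ct 35 in all 4 values of day 3. The 6 myeloid and lymphoid miRNAs, such as miR-223 and miR-142-3p, had a mean fold of 24.4 to 30.8 on day 1 and of 1.17 to 1.36 on day 21. At baseline this mean ran from 0.88 to 1.06. The list did not move as one: miR-223 and both strands of miR-142 rose on day 1 (6.53, 4.96 and 5.12 log2 units), while miR-150 and miR-155 were at 0.42 and 0.11. On day 3 miR-150 (-1.32) and miR-155 (-1.37) fell. They fell too on day 4 (-1.84 and -1.41) and day 7 (-2.10 and -1.21). On day 21 the differences of the 6 from baseline ran from -0.79 to 0.92.

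The 6 of 7 epithelial miRNAs on the panel had a mean fold of 70.1 to 158 on day 1, 6.60 to 14.8 on day 7 and 0.543 to 1.79 on day 21. On the same measure miR-34c was at 9.78 to 13.6 times its baseline median on day 1, 41.6 to 53.8 times on day 7 and 27.0 to 33.9 times on day 21. The epithelial mean counts all 6 members, but only 5 were detected well enough to test. Of these, miR-200a was the highest on day 1, at 8.38 log2 units or 334-fold. It was followed by miR-141, miR-200c and miR-200b at 5.40, 4.60 and 3.62 log2 units, so the mean does not describe each member. The member miR-203, known from skin, went the other way and fell on days 1, 3, 4 and 7 (-0.50, -1.19, -1.17 and -0.91 log2 units). On this scale, the epithelial and the immune means were highest on day 1, and miR-34c from day 3 to day 7. The lists were not computed relative to U6. There miR-34c stood at 4.05, 4.42, 5.06 and 4.45 log2 units on days 3, 4, 7 and 21, and the values of day 21 overlapped those of days 4 and 7. Of the ciliated epithelium pair, miR-449a alone was measured, at 1.69 to 2.05 times its baseline median on day 21. The endothelial pair, the strands of miR-126, was at 0.175 to 0.23 on day 7 and 0.618 to 0.716 on day 21. The 5 smooth muscle and fibroblast miRNAs were at 1.27 to 2.18 on day 7 and 0.639 to 1.38 on day 21. On day 7, 2 of the 5 rose and 2 fell, where 31.5% of all tested miRNAs rose and 35.7% fell. Those that fell were miR-143 (-2.39) and miR-145 (-3.19). The part of these cell types in the level of miR-34c was not tested.

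**Figure D4:**
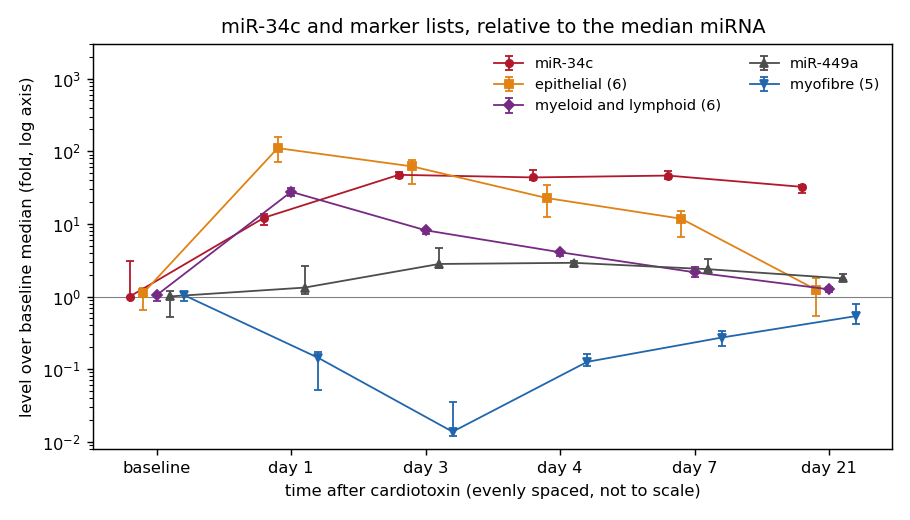
Fold over the baseline median (vertical axis, log scale) of miR-34c and miR-449a at baseline and by day, relative to the median miRNA. For the epithelial, the myeloid and lymphoid, and the myofibre miRNAs it is the mean of the folds of the members. Points are medians of 4 values with bars from lowest to highest. On day 21 miR-34c is at 27.0 to 33.9, the epithelial mean at 0.543 to 1.79 and the myeloid and lymphoid mean at 1.17 to 1.36.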

How the data were processed

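Ct values were deposited by the authors as unnormalized TaqMan readings, an "other" unit here, with a time point column and a baseline column in each of 5 files (888 lines each). Per the labels' protocols, RNA had an integrity number above 9 and PCR ran for 40 cycles. How the Ct threshold was set, and the genome build, is not given in the sources used. Baseline was identical in the 5 files and used once. Detection meant Ct under 35 in at least 3 of 4 values, and a miRNA was tested where detected in both arms. The 11 miRNA wells at 40 were left out of the fit. The mean folds of the marker lists used every well as read, with no detection limit.

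All 6 arms entered 1 limma 3.58.1 fit (R 4.3.3, lmFit and eBayes, two-sided, Benjamini-Hochberg over the tested miRNAs), checked on simulated data. Permutation tests used scipy 1.17.1 in Python 3.11.15. Planned tests of miR-34c between days are not reported, since the Ct of all arms entered its choice. The members, lists and tests were chosen with earlier results of these data known. Named miRNAs were miR-34c, its measured family, the p53-linked list (values for those passing on day 1 or 21) and the 5 most alike by each measure. Other scalings, Ct limits, wells at 40, fits of 2 arms and runs without 1 value were tried. Depth has no counterpart in Ct data, and 4 values per arm limit the precision.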

Additional observations from a re-analysis of the deposited data

Results flagged for a closer look

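Of 54 groups of 4 values checked, 4 had a value far from the other 3, where chance gives about 1 in 20. They were baseline value 4 of miR-34c (Ct 28.54), baseline value 1 of miR-34a (Ct 22.61), and value 3 of snoRNA135 on day 1 (Ct 18.01) and on day 3 (Ct 17.23). The gap to the nearest value was 0.964, 0.873, 0.893 and 0.947 of the range of its group, on the median-miRNA scale for the miRNAs and in raw Ct for snoRNA135.

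The difference from baseline was larger on day 3 than on day 1 for the 3 relatives of miR-34c, by limma's test of the difference on both scales. The excess relative to the median miRNA was 2.57 log2 units for miR-34a, 1.43 for miR-34b-3p and 1.04 for miR-449a (n = 4 per arm). Relative to Y1 miR-34b-3p was 4.01 above baseline on day 3 and 4.00 on day 1, and miR-449a was 3.10 above it on day 3 and 3.48 on day 1, the other direction.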

How the results depend on the processing

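Changes are log2 differences from baseline unless said otherwise, and the cause of each shift between scalings was not tested. For each control RNA and for raw Ct, passing took an adjusted p under 0.05 on that scale alone, a looser rule than both scales. Relative to the median miRNA alone, 87 miRNAs were called higher and 82 lower on day 1, against 101 called on both scales. Larger counts and newly passing miRNAs under 1 scaling are therefore not on a par with the main calls. Relative to U6, miR-34c was at 1.26, 4.05 and 4.42 on days 1, 3 and 4, and its steps were 2.79, 0.38 and 0.63 for day 3 minus day 1, day 4 minus day 3 and day 7 minus day 4. On day 1 miR-34b-3p was at -0.65 and miR-449a at -1.16, with 158 miRNAs called against 101 on both scales. miR-34a was at -0.048 on day 21.

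Relative to snoRNA135, miR-34c was at 1.82, 3.40, 3.57, 3.98 and 3.43 on days 1, 3, 4, 7 and 21 and at 1.58 for day 3 minus day 1. On day 1 miR-34b-3p was at -0.09 and miR-449a at -0.61. miR-34a was at 0.38, -0.60 and -1.06 on days 3, 7 and 21, and miR-449a at 0.35 and -0.10 on days 7 and 21. It called 173 miRNAs on day 1 and 173 on day 21, and 13 of the p53-linked list on day 21.

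Relative to snoRNA202, miR-34c was at 5.80 on day 7 and -1.25 for day 21 minus day 7. On day 1 miR-34a was at -0.28 and no longer passed. Newly passing were miR-34b-3p (1.40) on day 1, miR-34a at 1.90 and 1.22 on days 4 and 7, and miR-449a at 0.89, 2.08, 2.02 and 1.02 on days 1, 3, 4 and 21. It called 163 miRNAs on day 1 and 151 on day 21, with 8 p53-linked on day 21. Relative to U87, miR-34c was at 2.72 on day 1 and -0.95 for day 21 minus day 7. Newly passing were miR-34b-3p (0.81) on day 1, miR-449a at 1.44 and 1.67 on days 3 and 4, and miR-34a at 1.55 and 0.70 on days 4 and 7. miR-34a was at -0.17 on day 21. It called 161 miRNAs on day 1 and 134 on day 21, with 8 p53-linked on day 21.

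Relative to Y1, miR-34c was at 5.91, 6.49, 6.25 and 5.64 on days 1, 3, 7 and 21. Its steps were 0.58, -1.09 and 0.86 for day 3 minus day 1, day 4 minus day 3 and day 7 minus day 4. miR-34a was at 2.32, 1.86, 1.67 and 1.15 on days 1, 4, 7 and 21, miR-34b-3p at 4.00 on day 1, and miR-449a at 3.48, 3.10, 1.97 and 2.10 on days 1, 3, 4 and 21, all passing. It called 190 miRNAs and 13 p53-linked on day 1. Raw Ct gave 3.56, 5.88, 6.04 and 6.34 for miR-34c on days 1, 3, 4 and 7, with -1.62 for day 21 minus day 7. In raw Ct miR-34a was at -0.03 on day 1, and at 2.50 and 1.76 on days 4 and 7, newly passing. So were miR-34b-3p (1.65) on day 1 and miR-449a at 1.13, 2.49, 2.62 and 1.18 on days 1, 3, 4 and 21. It called 154 miRNAs on day 1 and 139 on day 21.

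A Ct limit of 32 left 5 p53-linked calls on day 1 and 7 on day 4, against 8 and 11, with fewer miRNAs tested. Among all miRNAs it left 94 and 133 calls on these days, against 101 and 144. How many of the list were still tested at that limit is not given here. With wells at 40 kept, miR-34a on day 3 (2.16) no longer passed. With only the arms compared in the fit, miR-34a on day 1 (-0.41) no longer passed, and on day 4 miR-34a (1.56) and miR-449a (1.68) did. The 5 nearest time courses by Pearson's r shared 2 with those by root mean square difference.

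Of the calls on both scales 18.8%, 32%, 38.2%, 46.9% and 53.4% were higher on days 1, 3, 4, 7 and 21, against 51.5%, 48.5%, 50.8%, 48.9% and 48.7% relative to the median miRNA alone. Relative to Y1 the share was 98.9% on day 1 and 94.7% on day 21, and relative to snoRNA135 it was 23.1% and 20.2%.

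With 1 value left out at a time (8 runs each), results lay in these ranges. The change of miR-34c was 3.01 to 3.57 on day 1, 5.03 to 5.60 on day 3, 4.94 to 5.51 on day 4, 5.00 to 5.55 on day 7 and 4.42 to 5.01 on day 21. That of miR-34a was -0.57 to -0.33 on day 1, 2.06 to 2.23 on day 3, 1.44 to 1.61 on day 4, 0.46 to 0.64 on day 7 and -0.068 to 0.15 on day 21. That of miR-34b-3p was 1.16 to 1.40 on day 1, 2.58 to 2.85 on day 3, 2.56 to 2.82 on day 4, 2.54 to 2.79 on day 7 and 2.39 to 2.65 on day 21. That of miR-449a was 0.48 to 0.90 on day 1, 1.56 to 1.96 on day 3, 1.43 to 1.83 on day 4, 1.26 to 1.69 on day 7 and 0.81 to 1.17 on day 21. The number of miRNAs called was 97 to 104 on day 1, 122 to 129 on day 3, 134 to 141 on day 4, 127 to 144 on day 7 and 72 to 86 on day 21. The p53-linked calls numbered 8 in every run on day 1, 11 to 12 on day 3, 9 to 11 on day 4, 8 to 10 on day 7 and 3 to 6 on day 21. For miR-34c between days it was 1.91 to 2.07 for day 3 minus day 1, -0.16 to -0.02 for day 4 minus day 3, -0.017 to 0.14 for day 7 minus day 4 and -0.63 to -0.51 for day 21 minus day 7. The day 3 call of miR-34a was lost in 7 of 8 runs, and on day 4 miR-34a passed in 1 run and miR-449a in 2.

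No paired analysis was possible because the value numbers are only positions in the files and the labels give no numbers shared between arms. The 4 values per arm, unknown assay efficiencies and control RNAs that were not level between arms limit these results, the size of the day 1 difference most.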

Other observations

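Among 6 miRNAs known to act on the messenger RNA of p53 itself, 4 were on the panel, and all were tested. On day 1, miR-125b-5p (-1.53 log2 units), miR-380-5p (-1.20) and miR-30d (-1.08) fell by limma's test on both scales, while miR-25 stood at 1.16 on the median-miRNA scale and -0.75 relative to U6. On day 21, miR-380-5p rose, with a difference of 3.50 from baseline (limma adjusted p = 8.14e-14, n = 4 per arm, and 3.38 relative to U6, adjusted p = 2.70e-07). It had also risen on day 4 (2.90) and day 7 (4.13). miR-30d fell on days 3, 4 and 7 (-1.95, -2.55 and -2.43), and miR-125b-5p on days 3 and 4 (-0.82 and -0.91). miR-125b-5p, miR-25 and miR-30d stood at 0.09, 0.04 and -0.69 on day 21 and did not pass on both scales. Over all miRNAs, 38.9% fell on day 1, 41% on day 3, 41.8% on day 4 and 35.7% on day 7, and 25.8% rose on day 4, 31.5% on day 7 and 22.1% on day 21.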
